A study of Mus musculus with 20 samples.

Results

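The enzymes described here are the flavin monooxygenases (Fmo), glutathione S-transferases (Gst, with the microsomal Mgst), UDP-glucuronosyltransferases (Ugt), aldehyde dehydrogenases (Aldh), aldo-keto reductases (Akr), carboxylesterases (Ces), epoxide hydrolases (Ephx) and N-acetyltransferases (Nat), which modify drugs and aldehydes in liver beside the cytochromes P450. They were chosen by name: every probe whose single gene symbol in the platform annotation begins with one of these family stems, with a digit after Fmo, Ugt and Nat. This gave 74 probes and 68 genes, out of 21557 features measured (11648 named genes, each the mean of its probes, and 9909 probes with no gene or several genes listed). The families held 4 Fmo, 14 Gst, 2 Mgst, 7 Ugt, 13 Aldh, 9 Akr, 8 Ces, 2 Ephx and 9 Nat genes. Of the well known genes of these families, Gsta1, Gstm3, Ugt1a1, Ugt2b1 and Akr1b7, and any listed under the older names Akr1a4, Ces1, Ces2, Ces3 or Ces6, were not analysed here.

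The livers came from C57BL/6J mice of the FCG (core genotypes) cross, where the testis gene Sry is deleted from the Y chromosome (written Y-) and supplied, where present, by a transgene on an autosome. There were 4 groups of 5 animals: XX Sry and XY-Sry, which carry the transgene and developed testes (gonadal males), and XX and XY-, which lack it and developed ovaries (gonadal females). Every animal of every group ate chow with 4% fat until its gonads were removed at 8 weeks, and was killed at 12 weeks after a fast of 12 hours. Gonadal type and presence of the transgene coincide in this cross and cannot be told apart, and animals with intact gonads were not analysed here. Each liver was labelled with Cy5 on 1 two-colour array beside a Cy3-labelled liver pool, described in the sample names as a pool of 17 chow-fed mice and in the study's design text as equal shares of the samples themselves. All values below are log2 ratios of liver over that pool. A ratio gives differences between livers for 1 gene, and no level that can be set against another gene's, nor can the level of hepatocyte markers show that the tissue is liver.

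Eif2s3y and Kdm5d, genes of the Y chromosome, checked the labels. Eif2s3y ranged from 0.57 to 1.34 in every XY-Sry and XY- liver but 1, and from -5.28 to -2.46 in XX Sry and XX livers. The exception, the library labelled XY- 30, had -3.90 for Eif2s3y and -3.16 for Kdm5d, which ranged from 0.14 to 1.37 in its 9 companions and from -3.03 to -1.22 with an XX complement. The library labelled XY- 30 thus went against its label on the sex chromosomes and was kept in its labelled group. Among the 190 pairs of arrays the lowest correlation over probes was -0.54, and 9 pairs lay below -0.3. The labels give the same dyes for every array, and the Y-linked genes were low in XX livers, so the direction of the ratios was kept. On 4 gonadal female arrays, XX 2, XX 6, XY- 3 and XY- 12, ratios were wider than on the rest (SD over all features of 0.317 to 0.340, against at most 0.258). For differences between gonadal types, the value without these 4 arrays is given beside each named enzyme whose sign turned or whose difference moved by over 1.5 times (9 and 19 of 44 named enzymes).

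These families share a task and differ in chemistry. Flavin monooxygenases oxidise nitrogen and sulphur atoms, carboxylesterases and epoxide hydrolases split esters and epoxides with water, and aldehyde dehydrogenases and aldo-keto reductases oxidise or reduce carbonyl groups of drugs, lipids, retinoids and steroids. The transferases then attach glucuronic acid, glutathione or an acetyl group. Glucuronic acid and glutathione make products easier to excrete. The stem Nat also takes in genes with other roles, such as Nat10, an RNA acetyltransferase, and Nat8l, which makes N-acetylaspartate in brain.

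Between gonadal males and gonadal females, averaged over both sex chromosome complements, 4 of the 68 enzymes passed the test (limma on all 21557 features, Benjamini-Hochberg adjusted p under 0.05). Nat8, which acetylates cysteine conjugates at the last step of mercapturic acid formation, was 3.02-fold higher in gonadal males. Fmo2, the flavin monooxygenase best known from lung, was 2.05-fold higher. Aldh1a1, which oxidises retinaldehyde to retinoic acid, was 1.48-fold lower, and Nat8f1, a neighbour and relative of Nat8, was 1.98-fold lower. The share called, 5.88% of the enzymes, stood beside 3.75% of all features and 4.27% of named genes. The 2 higher enzymes stood beside 1.47% of all features called higher, and the 2 lower ones beside 2.28% called lower. For no enzyme did all gonadal males lie on one side of all gonadal females (0 of 68, beside 0.343% of all features). At an unadjusted p under 0.05 the count was 17 of 68 (25%), beside 17.8% of all features and 19.0% of named genes. The median difference of the 68 enzymes was -0.03, and that of all features was 0.0075. Differences were negative for 40 of the 68 enzymes and for 9989 of the 21557 features. Members of a family are not replicates, so the counts of signs by family below are description only.

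**Figure D1:**
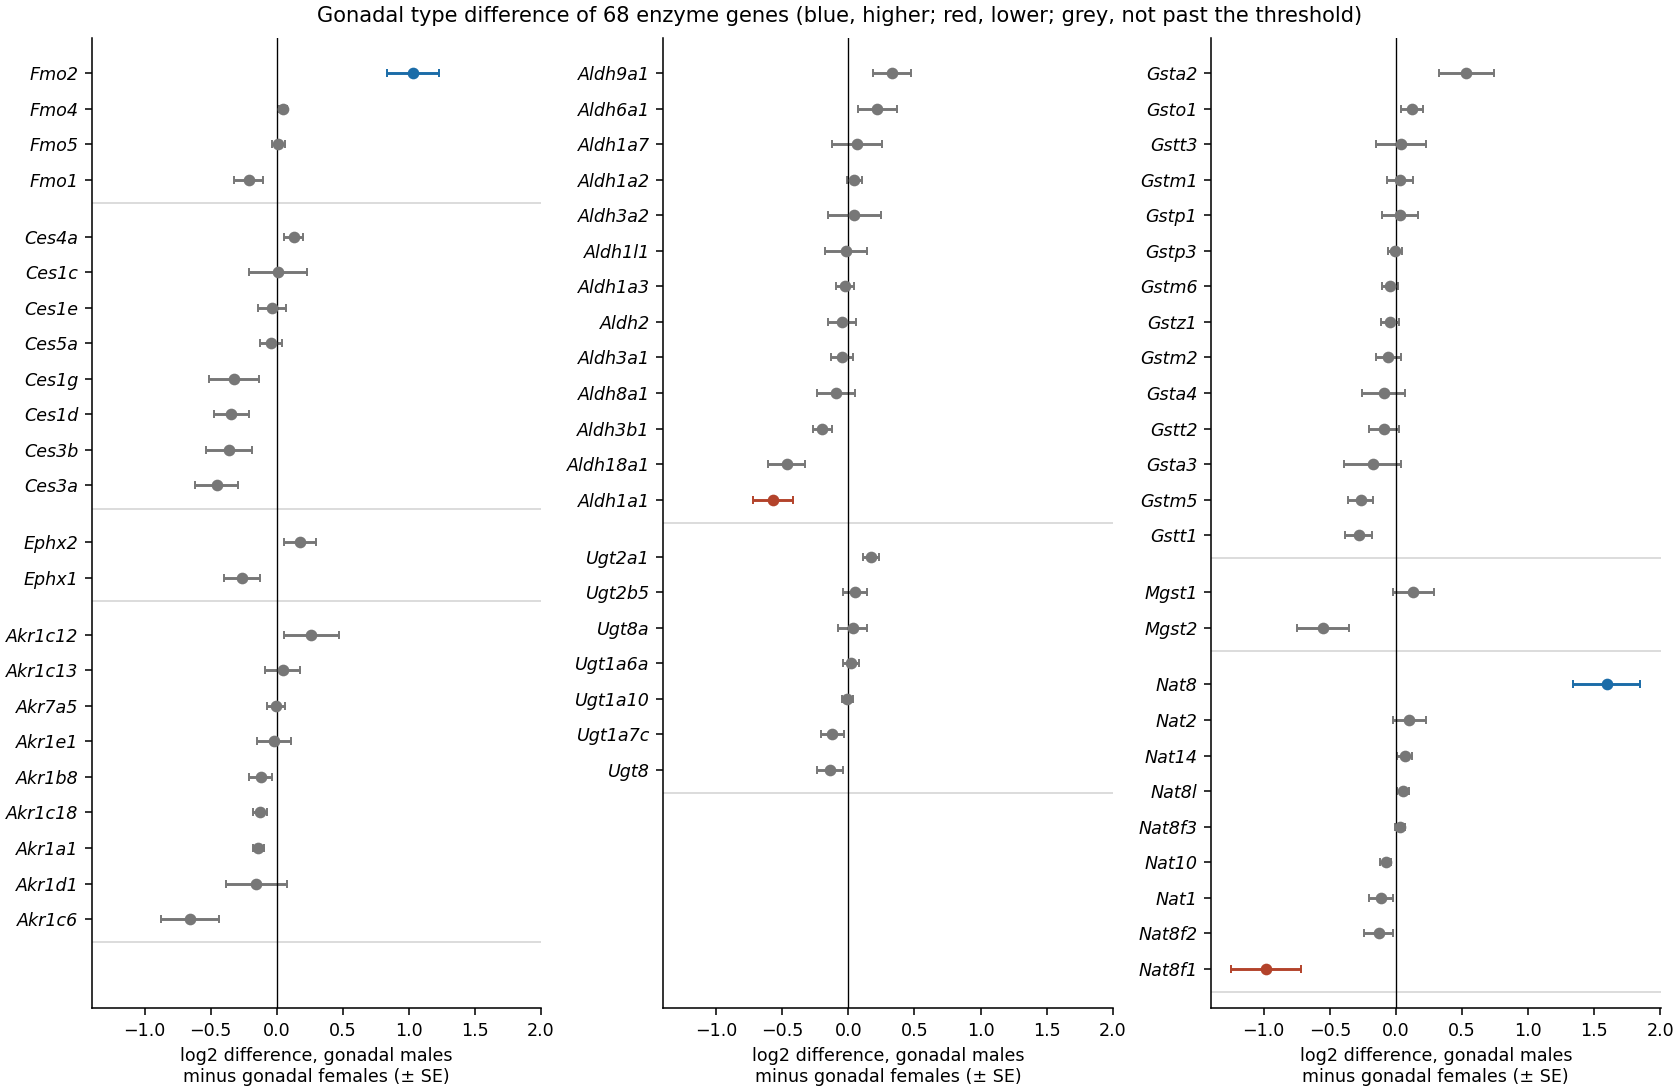
Log2 difference between gonadal males and gonadal females (x axis, with its SE) for each of the 68 enzymes, by family down each panel (n = 10 livers each). Nat8 and Fmo2 (blue) lie above 1, Aldh1a1 and Nat8f1 (red) lie at -0.57 and -0.98, and the other 64 (grey) did not pass the threshold.

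The promoter windows of Fmo2, Nat8 and Nat8f1, 300 bases that end just past each gene's start, are shown because the first pair were the enzymes higher in gonadal males and Nat8f1 lies near Nat8 with the opposite sign. They are RefSeq sequences of build GRCm38.p6, all on the minus strand, at chr1:162898709-162899008 and chr1:162898444-162898743 for Fmo2, whose windows overlap, chr6:85836808-85837107 and chr6:85832230-85832529 for those of Nat8, and chr6:85915583-85915882 for Nat8f1. Capitals mark the STAT5 core motif TTCNNNGAA, and a sequence without capitals holds none of the 3 motifs searched.
Fmo2, window at the higher coordinates: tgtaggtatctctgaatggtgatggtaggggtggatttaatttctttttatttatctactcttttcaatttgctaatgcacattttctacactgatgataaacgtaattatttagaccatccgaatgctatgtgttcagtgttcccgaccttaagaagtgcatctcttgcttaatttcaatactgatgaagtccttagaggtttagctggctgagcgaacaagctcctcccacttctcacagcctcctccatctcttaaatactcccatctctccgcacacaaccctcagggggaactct
Fmo2, window at the lower coordinates: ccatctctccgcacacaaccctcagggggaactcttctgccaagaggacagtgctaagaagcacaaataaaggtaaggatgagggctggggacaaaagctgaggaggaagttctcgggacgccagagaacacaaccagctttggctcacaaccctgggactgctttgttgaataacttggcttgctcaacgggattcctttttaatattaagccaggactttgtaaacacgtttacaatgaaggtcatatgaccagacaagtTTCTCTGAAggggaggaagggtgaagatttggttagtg
Nat8, window at the higher coordinates: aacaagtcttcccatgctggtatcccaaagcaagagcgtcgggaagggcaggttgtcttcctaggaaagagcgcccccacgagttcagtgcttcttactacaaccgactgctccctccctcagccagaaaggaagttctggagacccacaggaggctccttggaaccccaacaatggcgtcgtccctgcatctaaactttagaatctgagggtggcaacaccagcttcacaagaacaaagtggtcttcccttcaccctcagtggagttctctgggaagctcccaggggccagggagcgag
Nat8, window at the lower coordinates: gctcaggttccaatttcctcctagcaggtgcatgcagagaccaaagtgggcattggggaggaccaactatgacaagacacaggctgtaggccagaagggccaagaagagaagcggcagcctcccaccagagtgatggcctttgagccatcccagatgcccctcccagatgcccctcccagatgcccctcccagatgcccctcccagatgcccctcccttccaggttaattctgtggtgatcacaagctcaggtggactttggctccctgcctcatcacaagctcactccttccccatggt
Nat8f1: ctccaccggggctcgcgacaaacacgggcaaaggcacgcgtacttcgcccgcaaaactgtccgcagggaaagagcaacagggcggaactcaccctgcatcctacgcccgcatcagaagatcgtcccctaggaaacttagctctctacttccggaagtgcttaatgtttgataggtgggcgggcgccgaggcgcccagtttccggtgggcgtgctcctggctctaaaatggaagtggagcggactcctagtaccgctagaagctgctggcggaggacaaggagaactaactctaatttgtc

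On either strand, the STAT5 core was found in 1 of 7 windows of the 4 enzymes past the threshold, in 9 of 67 windows of the 55 enzymes with a window (13.4%) and in 8.30% of 32851 promoter windows of all genes. The core of the antioxidant response element, TGACNNNGC, was in 0 of the 7, in 5 of the 67 (7.46%) and in 12.4% of all windows. The palindromic response element bound by the glucocorticoid and androgen receptors was in none of the 67 and in 3 of all windows. These matches describe letters in short windows, and binding was not measured.

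Nat8 was the enzyme with the widest range over the livers. It stood at 1.21, 0.64, -0.26, -0.13 and 1.18 in XX Sry livers and at 0.68, 0.22, -0.42, 0.36 and 0.83 in XY-Sry livers. In gonadal females it stood at -1.42, -1.24, -1.12, 0.21 and -0.62 in XX livers and at -0.54, -1.79, -2.04, -1.67 and -1.42 in XY- livers. XX 35 was the 1 gonadal female above 0, and it lay above 3 of the gonadal males, so the groups overlapped. The means were 0.43 ± 0.58 in gonadal males and -1.17 ± 0.68 in gonadal females (SD, n = 10 each), a log2 difference of 1.59 ± 0.25 (SE, limma adjusted p = 0.00189).

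Fmo2 stood at -0.43, 0.56, 0.95, 0.39 and -0.43 in XX Sry livers and at 0.13, -0.38, 0.21, 0.43 and 0.44 in XY-Sry livers. It stood at -0.85, -0.77, -1.26, -1.56 and -0.59 in XX livers and at -0.24, -1.30, -0.67, -0.18 and -1.03 in XY- livers. Only XY- 12 and XY- 3, both arrays of wide ratios, reached into the range of the gonadal males. The means were 0.19 ± 0.47 in gonadal males and -0.85 ± 0.45 in gonadal females (SD, n = 10 each), a log2 difference of 1.03 ± 0.20 (SE, limma adjusted p = 0.00684). XY- 12 and XY- 3 are among the 4 wide arrays, so leaving out the 4 removes the overlap by itself. The share of all features without overlap in that smaller set was not counted. The difference without the 4 wide arrays was 1.30 (limma adjusted p = 0.00332). The calls of Nat8 and Fmo2 held in all 20 fits that left out 1 animal each.

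Aldh1a1 stood at 0.13, -0.56, -0.0036, -0.70 and 0.08 in XX Sry livers and at -0.44, -0.48, -0.65, 0.35 and 0.14 in XY-Sry livers. It stood at 0.28, 0.55, 0.10, 0.59 and 0.59 in XX livers and at -0.12, 0.63, 0.11, 0.71 and 0.12 in XY- livers. Of the gonadal females only XY- 12 lay below 0, and 5 of 10 gonadal males lay above XY- 12 and 5 below it, so the groups overlapped. The log2 difference was -0.57 ± 0.15 (SE, limma adjusted p = 0.0413). The call ended when any 1 of XX Sry 18, XX Sry 31, XY-Sry 19, XY-Sry 27, XY-Sry 20, XX 6, XX 35, XX 2, the library labelled XY- 30 or XY- 3 was left out (adjusted p up to 0.0850), with a difference between -0.64 and -0.51 over all 20 such fits. Without the 4 wide arrays it was -0.52 (limma adjusted p = 0.126).

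Nat8f1 stood at -0.53, -0.95, 0.36, -0.90 and -0.38 in XX Sry livers and at -0.48, -0.23, -0.86, 0.31 and -0.13 in XY-Sry livers. It stood at -0.09, 1.37, 0.30, 0.39 and 2.16 in XX livers and at -0.04, 0.29, -0.06, 1.23 and 0.49 in XY- livers. The 3 highest values, from XX 2, XX 6 and XY- 3, all came from arrays of wide ratios. The log2 difference was -0.98 ± 0.26 (SE, limma adjusted p = 0.0422), and it was -0.60 without the 4 wide arrays (limma adjusted p = 0.118). The call also ended without any 1 of XX Sry 38, XX Sry 18, XX Sry 31, XX Sry 32, XY-Sry 19, XY-Sry 27, XY-Sry 20, XY-Sry 14, XX 6, XX 2, XY- 3 or XY- 22 (adjusted p up to 0.0861).

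**Figure D2:**
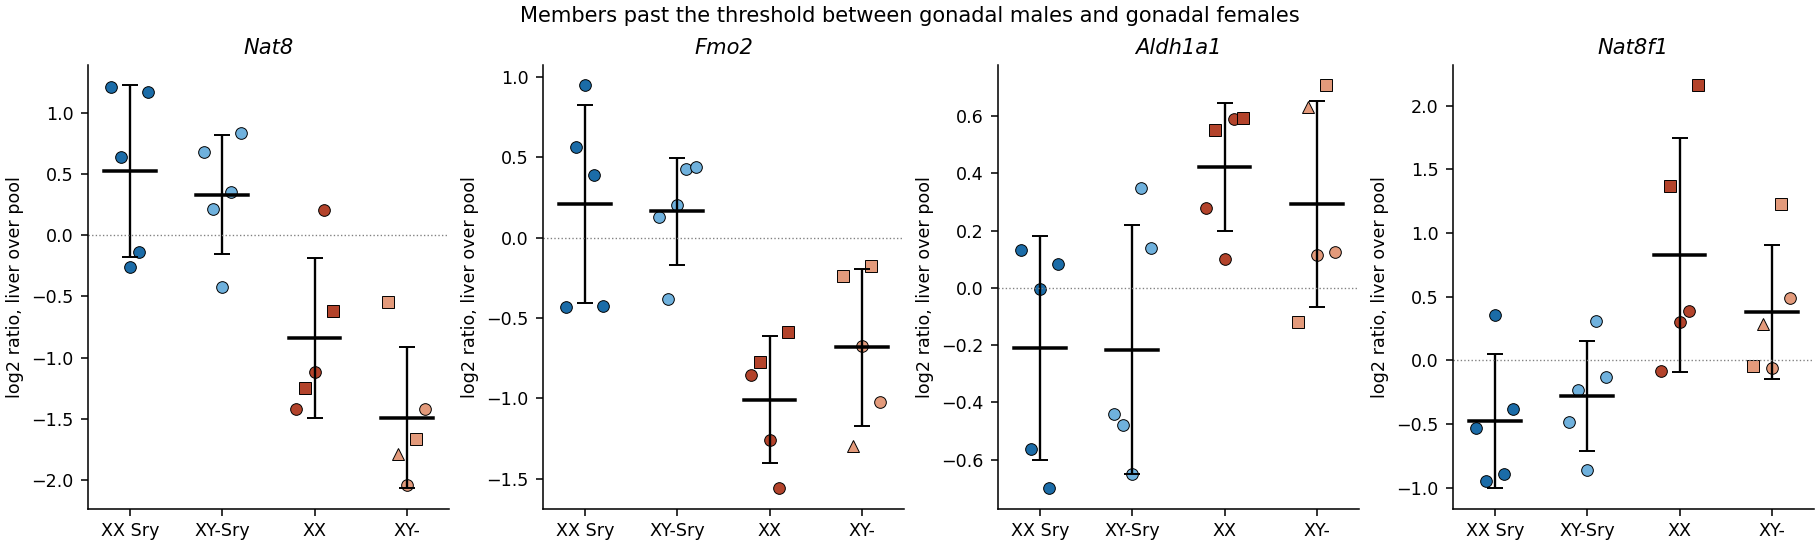
Log2 ratio to the pool (y axis) of the 4 enzymes past the threshold in each liver, by group (x axis, 5 livers each), with the group mean and SD as bars; squares are the 4 arrays of wide ratios and the triangle is the library labelled XY- 30. Nat8 and Fmo2 are mostly above 0 in XX Sry and XY-Sry livers and below 0 in XX and XY- livers, and Aldh1a1 and Nat8f1 mostly the reverse.

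Markers of other cells moved along the same contrast, where 1.47% of all features were called higher and 2.28% lower. Of 7 measured lymphocyte markers 5 were lower in gonadal males, and their mean ratio ran from -0.42 to -0.22 in gonadal males and from 0.12 to 0.80 in gonadal females, with no overlap. Of 7 Kupffer cell and macrophage markers 3 were lower, with a mean ratio between -1.09 and 0.42 in gonadal males and between -0.38 and 1.56 in gonadal females. Of 4 erythroid markers 1 was lower. None of the 6 hepatocyte, 4 periportal, 4 endothelial, 5 stellate, 2 cholangiocyte and 2 adipocyte markers passed, 1 of 8 pericentral hepatocyte markers (Rhbg, an ammonium transporter, -0.67) was lower, and markers of pancreatic acini were not analysed here. The part of cell composition in the 4 enzyme differences was not tested, and in whole liver fewer cells of a type and less RNA per cell cannot be told apart.

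Among the flavin monooxygenases only Fmo2 passed. Fmo1, its neighbour on chromosome 1 and a broad oxidiser of drugs, was -0.21 ± 0.11 (limma adjusted p = 0.330), and -0.04 without the 4 wide arrays (adjusted p = 0.844). Fmo5 was 0.01 ± 0.05 (0.03 without them) and Fmo4 was 0.05 ± 0.03. The gene number of Fmo5 was not in the current mouse gene table, and whether its probes read mouse Fmo5 was not tested. Fmo4 was among the flattest of all genes measured, with ratios between -0.05 and 0.16 over the 20 livers and an SD of 0.054.

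Of the 8 carboxylesterases none passed, and 6 had negative differences, with a family median of -0.18 (7 and -0.10 without the 4 wide arrays). Ces3a ran from -0.78 to 0.68 (median -0.19) in gonadal males and from -0.28 to 0.58 (median 0.32) in gonadal females, a difference of -0.46 ± 0.16 (limma adjusted p = 0.131). Its neighbour Ces3b was -0.36 ± 0.17 (adjusted p = 0.283), and both had the same sign on 15 of 20 arrays, with a median absolute gap of 0.138. Whether the probes tell these paralogs apart was not tested. Ces1d, a triglyceride hydrolase of liver, was -0.34 ± 0.13 (adjusted p = 0.168), and -0.20 without the wide arrays (adjusted p = 0.523). Ces1c, the esterase secreted into mouse plasma, was within 0.10 of 0 on 18 arrays, at -1.67 on XX Sry 38 and at -1.69 on XY- 3. Its difference was 0.0090, and -0.16 without the wide arrays.

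Neither of the 2 epoxide hydrolases passed. Ephx1, the microsomal enzyme that opens epoxides of drugs, was -0.26 ± 0.14 (limma adjusted p = 0.328). Without the 4 wide arrays it was -0.52 (adjusted p = 0.00878), with XX 6 at -0.62 being the lowest liver of all. Ephx2, the soluble enzyme that hydrolyses fatty acid epoxides, was 0.17 ± 0.12 (adjusted p = 0.505), and -0.01 without the wide arrays (adjusted p = 0.967).

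None of the 9 aldo-keto reductases passed, and 7 had negative differences (median -0.12), or 8 without the 4 wide arrays (median -0.09). Akr1c6, a steroid dehydrogenase of mouse liver, ran from -1.30 to 0.62 (median -0.47) in gonadal males and from -0.34 to 1.27 (median 0.34) in gonadal females, a difference of -0.65 ± 0.22 (limma adjusted p = 0.106). Without the wide arrays it was -0.39 (adjusted p = 0.445). Akr1a1, the general aldehyde reductase that also serves ascorbate synthesis, differed by -0.14 ± 0.04 (adjusted p = 0.0807). Akr1d1, which reduces steroids on the way to bile acids, was -0.15 ± 0.23 with ratios from -0.82 to 1.60. Akr1c18, known for inactivating progesterone, was -0.13 ± 0.06 (-0.08 without the wide arrays). Akr7a5, which reduces aflatoxin dialdehyde, was -0.0070 ± 0.07 (-0.09 without them).

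Of the 13 aldehyde dehydrogenases Aldh1a1 alone passed. Aldh18a1, which makes the precursor of proline, was second in p, with -0.55 to 0.10 (median -0.25) in gonadal males and -0.21 to 1.28 (median 0.11) in gonadal females, a difference of -0.47 ± 0.14 (limma adjusted p = 0.0648). Its highest value, 1.28, came from XY- 12, and without the 4 wide arrays the difference was -0.34 (adjusted p = 0.0279). Aldh1a7, which adjoins Aldh1a1 on chromosome 19, was 0.07 ± 0.19 (0.22 without the wide arrays), and the pair had the same sign on 7 of 20 arrays. Aldh2, the mitochondrial enzyme that clears acetaldehyde, was -0.05 ± 0.10 (-0.03 without them). Aldh3b1 was -0.20 ± 0.07 (adjusted p = 0.146), and -0.10 without the wide arrays (adjusted p = 0.491). Aldh3a2, the fatty aldehyde dehydrogenase, was 0.04 ± 0.20 over all livers, but its sign turned to -0.37 (adjusted p = 0.0639) without the wide arrays, of which XX 6 stood at -1.38.

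Among the transferases that use glucuronic acid none of 7 passed, and the differences were small, from -0.14 to 0.17. Ugt1a6a, which conjugates phenols, was 0.02 ± 0.06, and Ugt1a7c, from the same gene cluster, was -0.12 ± 0.09, with the same sign on 18 of 20 arrays. Without the 4 wide arrays they were -0.03 and -0.20. Whether the probes tell Ugt1a6a and Ugt1a7c apart was not tested. Ugt2b5 was 0.05 ± 0.09 over its 3 probes (0.09, 0.13 and -0.07 singly), and -0.05 without the wide arrays. Ugt2a1 was 0.17 ± 0.06 (limma adjusted p = 0.129), with its 2 probes at 0.03 and 0.31. Ugt8 was -0.14 ± 0.10 and Ugt8a, the ceramide galactosyltransferase, was 0.03 ± 0.11, and without the wide arrays these were -0.27 (adjusted p = 0.157) and 0.07. The gene number of Ugt8 was not in the current mouse gene table. Whether its probe reads a gene apart from Ugt8a was not tested.

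None of the 14 cytosolic glutathione transferases or the 2 microsomal ones passed, and 9 of the 14 had negative differences (median -0.04), or 7 without the 4 wide arrays (median 0.0061). Gsta2, an alpha class enzyme, ran from -0.23 to 0.61 (median 0.17) in gonadal males and from -1.44 to 0.58 (median -0.36) in gonadal females, a difference of 0.53 ± 0.21 (limma adjusted p = 0.175). Without the 4 wide arrays it was 0.72 (adjusted p = 0.0127). Gsta3 was -0.18 ± 0.22 and Gsta4, which conjugates aldehydes from lipid peroxidation, was -0.09 ± 0.16. Without the wide arrays both signs turned, to 0.22 (adjusted p = 0.426) and 0.06 (adjusted p = 0.842). In the mu class Gstm5 was -0.27 ± 0.09 (adjusted p = 0.124), Gstm1 was 0.03 ± 0.10 (0.09 without the wide arrays) and Gstm2 was -0.06 ± 0.10 (-0.0086 without them). In the theta class Gstt1 was -0.28 ± 0.10 (adjusted p = 0.140) and Gstt2 was -0.09 ± 0.11, or -0.31 (adjusted p = 0.0443) without the wide arrays. Gstp1 was 0.03 ± 0.14 (0.23 without them) and Gstz1, which also acts in tyrosine breakdown, was -0.04 ± 0.07 (-0.07 without them).

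Mgst2, a microsomal transferase that can make leukotrienes, ran from -0.77 to -0.19 (median -0.43) in gonadal males and from -0.46 to 1.69 (median -0.07) in gonadal females. Every gonadal male lay below 0, and the value of 1.69 came from XY- 12. The difference was -0.55 ± 0.20 (limma adjusted p = 0.132), and -0.41 (adjusted p = 0.0233) without the wide arrays. Mgst1, an abundant transferase of liver membranes, was 0.13 ± 0.16, and its sign turned to -0.14 (adjusted p = 0.606) without the wide arrays.

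Beside Nat8 and Nat8f1, the other 7 N-acetyltransferases did not pass. Nat2 and Nat1, the arylamine acetyltransferases, were 0.10 ± 0.12 and -0.11 ± 0.09, and the sign of Nat2 turned to -0.07 (limma adjusted p = 0.804) without the 4 wide arrays. Nat10 was -0.08 ± 0.04. On chromosome 6, Nat8f2 lies between Nat8 and Nat8f1, next to Nat8 and with 1 protein-coding gene before Nat8f1. Nat8 minus Nat8f2 ranged from -2.27 to 1.01 over the 20 arrays, with the same sign on 13, and Nat8f2 and Nat8f1 had the same sign on 12 of 20. Nat8, Nat8f1 and Nat8f2 had 1 probe each, and whether these probes tell the paralogs apart was not tested.

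Leaving out the 4 wide arrays turned the sign of the difference for 15 of 68 enzymes, and 43 were then negative, against 40 over all 20 arrays. Without them, 7 of 68 enzymes passed (10.3%, beside 3.85% of all features): Nat8 (1.69, adjusted p = 0.00433), Fmo2, Ephx1, Gsta2, Mgst2, Aldh18a1 and Gstt2. With array quality weights in limma, 9 passed (13.2%, beside 7.79% of all features). The wide arrays held 63 of the 136 highest and lowest values of the enzymes (46.3%), beside 40.2% for all named genes. The SD of the 68 ratios on each of them was 0.436 to 0.536, against 0.225 to 0.412 on the other 16 arrays.

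**Figure D3:**
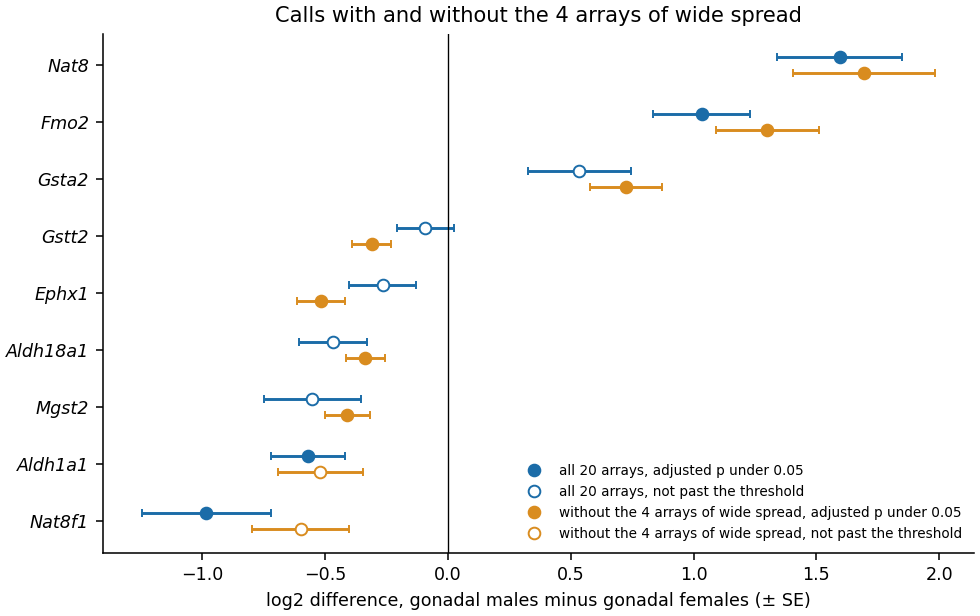
Log2 difference between gonadal males and gonadal females (x axis, with its SE) of each enzyme past the threshold over all 20 arrays (blue) or without the 4 arrays of wide ratios (orange); open circles did not pass. Nat8 and Fmo2 are filled in both, Ephx1 lies at -0.26 in blue and -0.52 in orange, and Nat8f1 lies at -0.98 in blue and -0.60 in orange.

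The sex chromosome comparison set XX Sry and XX livers against XY-Sry and XY- livers. None of the 68 enzymes passed (limma, adjusted p under 0.05), beside 0.0278% of all features (0.00464% higher and 0.0232% lower). At an unadjusted p under 0.05 there were 3 (4.41%), beside 5.06% of all features: Akr1e1 at 0.36, Nat8f2 at 0.24 and Ugt1a6a at 0.17, each with an adjusted p of 0.914. Akr1e1 and Nat8f2 were named after their values were seen. The differences of the 68 lay between -0.25 for Gstp1 and 0.42 for Nat8, which was 0.42 ± 0.25. Within gonadal males no enzyme passed (beside 0.00464% of all features), with 3 at an unadjusted p under 0.05 (beside 2.06%). Within gonadal females none passed (beside 0% of all features), with 1 at an unadjusted p under 0.05 (beside 6.08%). Leaving out the library labelled XY- 30 called no enzyme in these 3 comparisons.

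The Sry transgene was then compared within each complement. In XX livers Fmo2 alone passed (1 of 68, beside 0.645% of all features, or 0.204% called higher), with 1.22 ± 0.28 for XX Sry minus XX (limma adjusted p = 0.0496) and no overlap of the groups. This call ended in 15 of 20 fits that left out 1 animal (adjusted p up to 0.157), and held without XX Sry 38, XX Sry 32, XY- 12, the library labelled XY- 30 or XY- 3. In XY- livers Nat8 alone passed (1 of 68, beside 0.158% of all features, or 0.0417% called higher), with 1.82 ± 0.36 for XY-Sry minus XY- (limma adjusted p = 0.0446) and no overlap. It ended in 12 of 20 such fits (adjusted p up to 0.178), and held without XX Sry 38, XX Sry 9, XX Sry 31, XX Sry 32, XY-Sry 20, XX 6, XX 35 or XY- 12. Without the library labelled XY- 30 the difference was 1.75 (limma adjusted p = 0.125).

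At an unadjusted p under 0.05 there were 8 enzymes in XX livers (11.8%), beside 12.1% of all features, and 9 in XY- livers (13.2%), beside 9.29%. The groups did not overlap for 4 enzymes in XX livers, beside 4.38% of all features, and for 3 in XY- livers, beside 1.48%. Aldh18a1 (-0.42), Aldh9a1 (0.36) and Ces3a (-0.55) joined Fmo2 in the first, and Akr1a1 (-0.17) and Akr1c18 (-0.15) joined Nat8 in the second. Aldh9a1 was named after its values were seen.

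The other effect of each of these genes had the same sign. Nat8 was 1.36 higher on the log2 scale in XX Sry than in XX livers (adjusted p = 0.0964), and Fmo2 was 0.85 higher in XY-Sry than in XY- livers (adjusted p = 0.314). The interaction, which tests whether the effect of the transgene differs between complements, passed for none of the 68 enzymes, beside 0% of all features, and none reached an unadjusted p under 0.05 (limma), beside 2.58% of all features. It was -0.46 ± 0.51 for Nat8 and 0.37 ± 0.39 for Fmo2, and the smallest p was that of Ugt2b5 (-0.33, unadjusted p = 0.0758). The effect had the same sign in both complements for 43 of 68 enzymes (63.2%), beside 61.0% of all features.

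**Figure D4:**
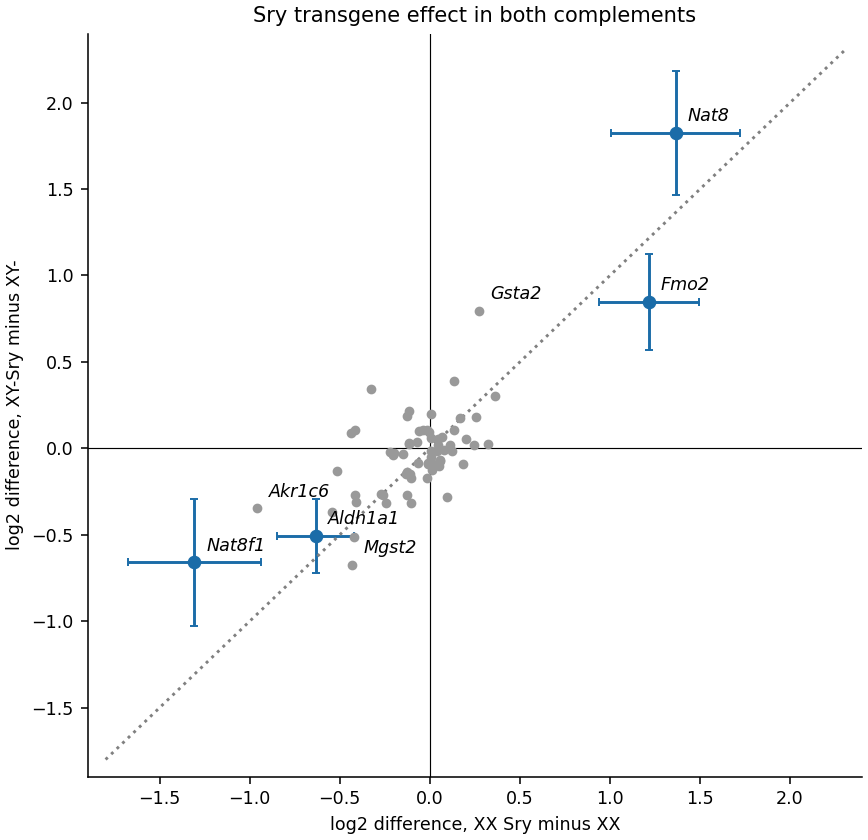
Log2 difference of XX Sry minus XX livers (x axis) against XY-Sry minus XY- livers (y axis) for the 68 enzymes (5 livers a group); bars are the SE of the 4 enzymes past the threshold between gonadal types and the dotted line marks equal effects. Nat8 lies at 1.36 and 1.82, Fmo2 at 1.22 and 0.85, and most enzymes near 0 on both axes.

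The median SD of the enzymes over the 20 arrays was 0.265, against 0.159 for all named genes. By family the median SD was 0.447 for Mgst, 0.403 for Ces, 0.351 for Aldh, 0.307 for Ephx, 0.290 for Akr, 0.255 for Gst, 0.216 for Nat, 0.206 for Ugt and 0.183 for Fmo. An SD above 0.5 was found for 10 enzymes, with Nat8 (1.02), Nat8f1 (0.788) and Fmo2 (0.693) at the top, and 14 stayed under 0.15. XX 6 and XY- 3 were each the highest or lowest array for 20 enzymes and XY- 12 for 18. XX 6 was highest for 15, among them Akr1d1 and Akr1c6, while XY- 12 was lowest for 15, among them Gsta2 and Gsta4.

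**Figure D5:**
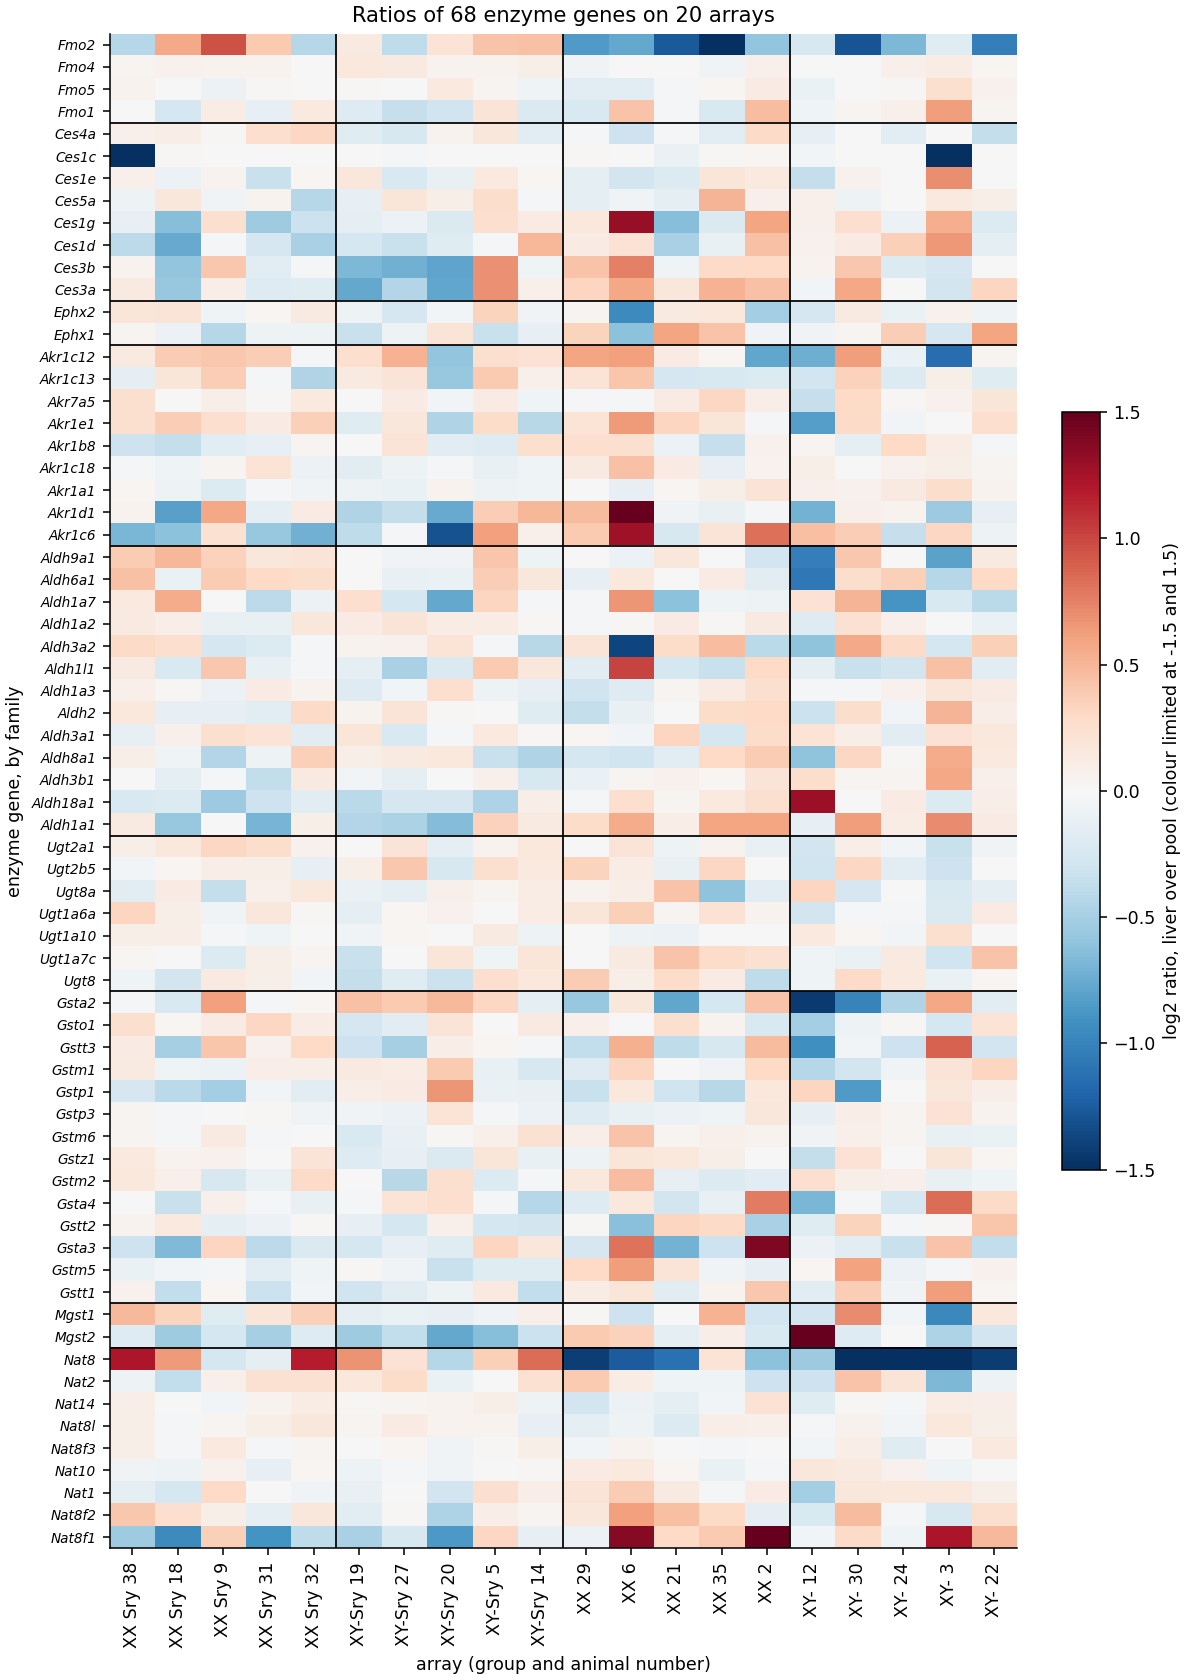
Log2 ratio to the pool (colour, limited at -1.5 and 1.5) of the 68 enzymes (rows, by family) on the 20 arrays (columns, by group). The XX 6, XY- 3 and XY- 12 columns hold the most deep colours outside the rows of Nat8, Fmo2 and Nat8f1.

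Genes that feed or accompany these enzymes were counted in lists of their own. Of all features 3.75% passed between gonadal types and 17.8% had an unadjusted p under 0.05 (limma). Of 13 measured genes of glutathione synthesis and the NRF2 response none passed between gonadal types (limma), with 2 at an unadjusted p under 0.05 and a median of -0.01. Of 8 genes that supply cosubstrates, some of them to enzymes outside these families, 1 was higher and 2 were lower (median -0.10). Ahcy, which clears S-adenosylhomocysteine, was at 0.30 (limma adjusted p = 0.00886). Acss2, which makes cytosolic acetyl-CoA, was at -0.55 (adjusted p = 0.0128), and Papss2, which makes the sulphate donor, at -0.32 (adjusted p = 0.0494). Ahcy and Papss2 serve methyltransferases and sulfotransferases, which are not among the 68 enzymes. Of 10 xenobiotic receptors, partners and target cytochromes none passed, with 2 at an unadjusted p under 0.05 (median 0.02).

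Of 28 other enzymes of drug metabolism outside the P450 family 1 was higher and 4 were lower (median 0.01). Of all features 1.47% were called higher and 2.28% lower. Inmt, which methylates indoleamines, was -1.34 ± 0.18 (limma adjusted p = 0.000493) and Sult5a1, a sulfotransferase, -0.88 ± 0.12 (adjusted p = 0.000649). The alcohol dehydrogenases Adh1, at -0.76 ± 0.14 (adjusted p = 0.00606), and Adh4, at -0.37 ± 0.10 (adjusted p = 0.0497), act one step before the aldehyde dehydrogenases. As3mt, which methylates arsenic, was 0.39 ± 0.08 (adjusted p = 0.0142). Of 9 efflux transporters 1 was higher, Abcb1b, a drug efflux pump, at 0.29 ± 0.05 (adjusted p = 0.00312; list median -0.03). In the sex chromosome comparison none of these 5 lists had a gene past the threshold, beside 0.0278% of all features.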

How the data were processed

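Liver RNA was measured on 20 two-colour arrays, 5 for each of 4 genotypes, with Cy5 on the liver and Cy3 on a pool per the labels. The authors deposited 1 log10 ratio per probe and array (23574 probes). The base and direction are not given in the sources used here and were read from Y-linked probes in XX livers. The expression software, background correction and normalisation are not given in the sources used here either. No spot intensity or flag was used, so dim probes could not be told apart and the number of arrays limits the precision. Of all values 2 were missing and 29 stood at the limit of 2 on the log10 scale, none of them from an enzyme.

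Values were multiplied into log2, probes of one platform symbol were averaged (5 of 68 enzymes had over 1 probe) and group means were fitted to the whole table with limma 3.58.1 (R 4.3.3), with Benjamini-Hochberg adjustment over 21557 features and a threshold of 0.05. A total of 13665 probes had 1 symbol, 48 had several and 9861 were not listed. The probes' annotation is that of the platform, and 66 of the 68 enzymes matched the current mouse gene table. Fmo5 and Ugt8 carry gene numbers that were not in it and keep the platform's name. The 68 are counted by platform symbol, so Ugt8 and Ugt8a may be 1 gene under different names. Gene order and promoter windows are those of RefSeq GRCm38.p6. The fit was also run on simulated data with independent values and 1 spread per feature on all arrays. That run cannot show how the 4 wide arrays or the correlations between arrays affect the calls.

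The enzymes, the gene lists and the markers were chosen with earlier results of these data known. Named enzymes were those past the threshold in a factorial effect, in each family the 3 with the smallest p between gonadal types and the 1 with the largest SD, and a set of well known enzymes (44 in all); of other lists, genes past the threshold. Separate animals are named in the labels; RNA batches are not. Alternatives were the library labelled XY- 30 or the 4 wide arrays left out, each probe singly, current gene names, centring, scaling, array weights, robust variances, a filter on SD, fits of only the groups compared, and each animal left out.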

Additional observations from a re-analysis of the deposited data

Results flagged for a closer look

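In 13 of the 176 sets of 5 livers tested (44 named enzymes in 4 groups, 7.39%), 1 liver stood far from the other 4 by Dixon's ratio. Chance gives about 5% for enzymes not picked by their spread. Some, such as Ces1c, were named for a large SD over these arrays, so 7.39% cannot be set against that 5%. The library labelled XY- 30 and the wide arrays XY- 12 and XY- 3 gave 7 of the 13. On XY- 12 Mgst2 stood at 1.69 and Aldh18a1 at 1.28, above the other XY- livers, and Nat1 at -0.51, below them. On XY- 3 Ces1c stood at -1.69, below, and Fmo1 at 0.63, above. On the library labelled XY- 30 Gstm5 stood at 0.61, above, and Gstp1 at -0.85, below. Ces1c was also low on XX Sry 38, at -1.67, and at -0.02 on XY-Sry 27, where the other 4 livers lay still closer to 0. On XX Sry 9 Akr1c6 stood at 0.23, above the other XX Sry livers, and Ephx1 at -0.43, below them. Akr1a1 on XY-Sry 20 (0.05) and Gstz1 on XY-Sry 5 (0.18) were above the rest of their group by small amounts.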

How the results depend on the processing

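Between gonadal types 4 enzymes passed (5.88%, beside 3.75% of all features). The count was 7 without the 4 wide arrays (10.3%, beside 3.85%) and 9 with array quality weights (13.2%, beside 7.79%). Under the other settings it was 4 to 6, beside 3.28% to 5.24% of all features. With the filter on SD it was 5, beside 8.12% of the features kept. When 1 animal was left out it was 2 to 6, beside 1.81% to 5.24% of all features. It was 2 without XX Sry 18, XX Sry 31, XY-Sry 19, XY-Sry 27, XY-Sry 20 or XX 2, and 6 without XY- 12. Between gonadal types Nat8 and Fmo2 passed under every setting run. No difference past the threshold changed sign. For XX Sry minus XX livers 1 enzyme passed, beside 0.645% of all features. The count was 0 with each probe tested singly (beside 0.484% of probes) and with arrays centred (beside 0.524%). It was also 0 with arrays centred and scaled (beside 1.41%) and with robust variances (beside 0.571%). It was 2 with array quality weights (beside 2.66%) and with a filter on SD (beside 1.37% of the features kept). When 1 animal was left out it was 0 to 3, beside 0.195% to 2.14%. With only those groups in the fit the count was again 1 (beside 1.79% of all features). The enzyme was then Aldh18a1 (-0.42, limma adjusted p = 0.0337) and not Fmo2. For XY-Sry minus XY- livers 1 passed, beside 0.158% of all features. The count was 0 without the library labelled XY- 30 (beside 0.107%) and without the 4 wide arrays (beside 0.241%). It was also 0 with arrays centred (beside 0.139%) and with arrays centred and scaled (beside 0.153%). With only those groups in the fit it was 0, beside 0.0186%. When 1 animal was left out it was 0 to 1, beside 0.051% to 0.237%. The cause of these changes was not tested. In the other 4 comparisons no setting called an enzyme (0 to 0 with 1 animal left out). Over all features the count between gonadal types, 808, was 1680 with array quality weights and 391 to 1129 with 1 animal left out. The count for XX Sry minus XX, 139, was 273 without the wide arrays, 303 with scaling, 573 with weights, 385 with only those groups and 42 to 462 with 1 animal left out. The count for XY-Sry minus XY-, 34, was 52 without the wide arrays, 56 with weights, 4 with only those groups and 11 to 51 with 1 animal left out. The sex chromosome count, 6, was 13 without the library labelled XY- 30, 0 without the wide arrays, 10 with scaling, 12 with weights and 2 to 13 with 1 animal left out. Within gonadal males the count, 1, ranged from 0 to 10, and within gonadal females, 0, it was 8 without the library labelled XY- 30. No paired analysis was possible because no animal number occurs in more than 1 group.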
